A study of Mus musculus with 140 samples.

Results

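The 5 mouse loci described here are those of Tcp1, Tatdn2, Stx5a, Actrt3 and Pramel7, where the deposited lists of silencer intervals were at their densest. A locus was the gene body (GENCODE M21, mm10) plus 10 kb on each side, and a listed interval belonged to it when it overlapped by 1 bp or more. In all, 70 of the 204761 listed intervals lay in the 5 loci, 37 of the 89596 intervals of the fibroblast list and 33 of the 115165 intervals of the stem cell list. The genes were selected on the measured density itself, out of 21938 protein-coding genes, so their densities are a description and no test was made on them.

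Silencers were mapped with Ss-STARR-seq, in which sheared mouse DNA is cloned into a reporter plasmid and the reporter RNA made in transfected cells is sequenced beside the plasmid pool. The labels describe 140 libraries, 20 of the input plasmid pool, 64 of reporter RNA from mouse embryonic fibroblasts (MEFs) and 56 of reporter RNA from mouse embryonic stem cells (mESCs). Titles of the input libraries carry the name hPGK. MEFs, a mixed primary culture of differentiated cells, were grown in serum-containing DMEM, and mESCs, which are pluripotent, in serum-free N2B27 medium with LIF and the inhibitors CHIR99021 and PD0325901. No genotype, strain or treatment beyond the culture media separated the groups in the labels. The 2 lists, 1 for each cell type, give a position and a fold for each interval. The fold is the authors' value and every listed fold lay above 2. The labels and headers do not say how the libraries entered the division, so a high fold is not read as strong silencing, and the folds of the lists may be scaled differently. An interval missing from a list only failed to be listed, which is not a measured absence of activity. With 1 list per cell type and no counts, there was no replicate check and the depth is unknown. Ranges in brackets after a percent are 95% confidence intervals from the exact binomial (Clopper-Pearson) method, which cover counting error only.

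A silencer is a DNA element that lowers transcription from a promoter, and repressor proteins that bind it can act from a distance or from within an intron. In a plasmid assay the element is read away from its chromosome, so a listed interval need not act on the gene beside it. The 5 genes have unrelated roles. Tcp1 encodes a subunit of the cytosolic chaperonin that folds actin and tubulin, and its start faces that of Mrpl18, which encodes a protein of the mitochondrial ribosome. Tatdn2 encodes a nuclease of the TatD family. Stx5a encodes syntaxin 5, a SNARE of transport between the endoplasmic reticulum and the Golgi. Actrt3 encodes an actin-related protein of the testis. Pramel7 encodes a PRAME-like protein known for its part in naive pluripotency.

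The sequences that carry the findings are shown first. They are the 6 mESC intervals packed into an intron of Mrpl18 just upstream of Tcp1, for each locus the overlapping MEF and mESC pair with the highest product of folds, and at Pramel7 also the MEF interval with the highest fold. Letters are the plus strand of GRCm38.p6 (mm10), 5′ to 3′, in which capitals mark bases outside the soft-masked repeats and lower case marks the masked ones. Coordinates of these lines count from 1 and start at the base after the deposited start.
Tcp1, run interval 1, chr17:12914148-12914197: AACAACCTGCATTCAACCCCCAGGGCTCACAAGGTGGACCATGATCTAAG
Tcp1, run interval 2, chr17:12914248-12914397: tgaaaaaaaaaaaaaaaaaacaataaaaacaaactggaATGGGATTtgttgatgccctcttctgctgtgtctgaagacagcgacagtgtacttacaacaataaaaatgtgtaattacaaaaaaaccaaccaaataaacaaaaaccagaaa
Tcp1, run interval 3, chr17:12914464-12914613: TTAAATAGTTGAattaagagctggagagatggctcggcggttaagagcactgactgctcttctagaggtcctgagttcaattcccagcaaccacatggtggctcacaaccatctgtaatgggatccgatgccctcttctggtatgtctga
Tcp1, run interval 4, chr17:12914714-12914763: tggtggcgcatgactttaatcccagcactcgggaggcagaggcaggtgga
Tcp1, run interval 5, chr17:12914914-12915013: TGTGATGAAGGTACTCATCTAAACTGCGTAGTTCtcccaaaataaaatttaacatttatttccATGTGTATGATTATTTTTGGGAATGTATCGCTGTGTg
Tcp1, run interval 6, chr17:12915114-12915163: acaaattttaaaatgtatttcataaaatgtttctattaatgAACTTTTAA
Tcp1, place of the highest paired folds, chr17:12907364-12907576: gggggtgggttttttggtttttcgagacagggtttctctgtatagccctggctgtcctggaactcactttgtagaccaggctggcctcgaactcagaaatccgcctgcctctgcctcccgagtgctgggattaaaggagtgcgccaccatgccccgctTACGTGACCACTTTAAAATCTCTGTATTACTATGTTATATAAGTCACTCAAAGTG
Tatdn2, intron, chr6:113705402-113705601: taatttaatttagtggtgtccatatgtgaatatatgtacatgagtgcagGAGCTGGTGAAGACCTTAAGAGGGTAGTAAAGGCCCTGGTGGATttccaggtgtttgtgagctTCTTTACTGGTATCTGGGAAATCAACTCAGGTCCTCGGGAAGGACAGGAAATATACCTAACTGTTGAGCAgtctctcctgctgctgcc
Stx5a, late intron, chr19:8753248-8753301: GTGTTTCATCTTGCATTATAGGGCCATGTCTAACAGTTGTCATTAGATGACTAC
Actrt3, upstream, chr3:30601118-30601417: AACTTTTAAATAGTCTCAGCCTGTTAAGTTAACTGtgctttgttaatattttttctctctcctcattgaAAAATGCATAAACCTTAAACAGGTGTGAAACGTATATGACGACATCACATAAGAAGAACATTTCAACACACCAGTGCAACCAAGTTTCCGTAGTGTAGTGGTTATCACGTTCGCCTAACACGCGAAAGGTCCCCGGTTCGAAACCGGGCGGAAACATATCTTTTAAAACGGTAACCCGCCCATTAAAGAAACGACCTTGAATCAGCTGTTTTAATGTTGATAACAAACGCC
Pramel7, intron, chr2:87493432-87493631: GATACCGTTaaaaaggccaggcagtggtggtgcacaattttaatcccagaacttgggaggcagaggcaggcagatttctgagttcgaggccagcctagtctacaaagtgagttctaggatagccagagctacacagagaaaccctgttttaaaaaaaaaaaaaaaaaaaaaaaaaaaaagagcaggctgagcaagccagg
Pramel7, shared place, chr2:87501360-87501659: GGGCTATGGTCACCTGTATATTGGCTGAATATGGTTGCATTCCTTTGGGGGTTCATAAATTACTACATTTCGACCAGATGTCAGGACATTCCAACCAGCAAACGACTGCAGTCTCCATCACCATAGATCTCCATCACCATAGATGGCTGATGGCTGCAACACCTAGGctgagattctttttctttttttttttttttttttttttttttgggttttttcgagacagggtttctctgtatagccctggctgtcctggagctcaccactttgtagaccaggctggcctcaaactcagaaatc
The first interval of the run at Tcp1 is unmasked, the next 3 are 92 to 100% masked, the fifth is 30% masked and the last 82%. Letters of the third and the fourth interval of the run are those of B2 and B1 short interspersed elements, names given here from the sequence and not from a repeat annotation. Masked letters of the other sequences were not named, and they may hold the same elements. The Actrt3 place is nearly all capitals, with 11.3% of its bases masked. It holds 15 CpG in 300 bases, 1.29 times the number its C and G content would give, while in the other sequences shown the same ratio ran from 0 to 0.752. The unmasked middle of that sequence is a transfer RNA gene, described with the locus.

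Density, the value that chose the members, is the number of intervals in a territory divided by its length. In the MEF list Actrt3 stood at rank 1 with 7 intervals (306 per Mb), Stx5a at rank 2 with 10 (289 per Mb) and Pramel7 at rank 3 with 8 (286 per Mb). Just outside stood Sbp at rank 4 with 6 intervals (251 per Mb). In the mESC list Mrpl18 stood at rank 1 with 9 intervals (360 per Mb), Tatdn2 at rank 2 with 12 (353 per Mb) and Tcp1 at rank 3 with 10 (341 per Mb). Just outside was Zfp941 at rank 4 with 11 intervals (317 per Mb). All 9 mESC intervals of Mrpl18 also lay in the territory of Tcp1, so these neighbours are 1 place and not 2. The median of all protein-coding genes was 31.3 per Mb in the MEF list and 40.6 per Mb in the mESC list.

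**Figure D1:**
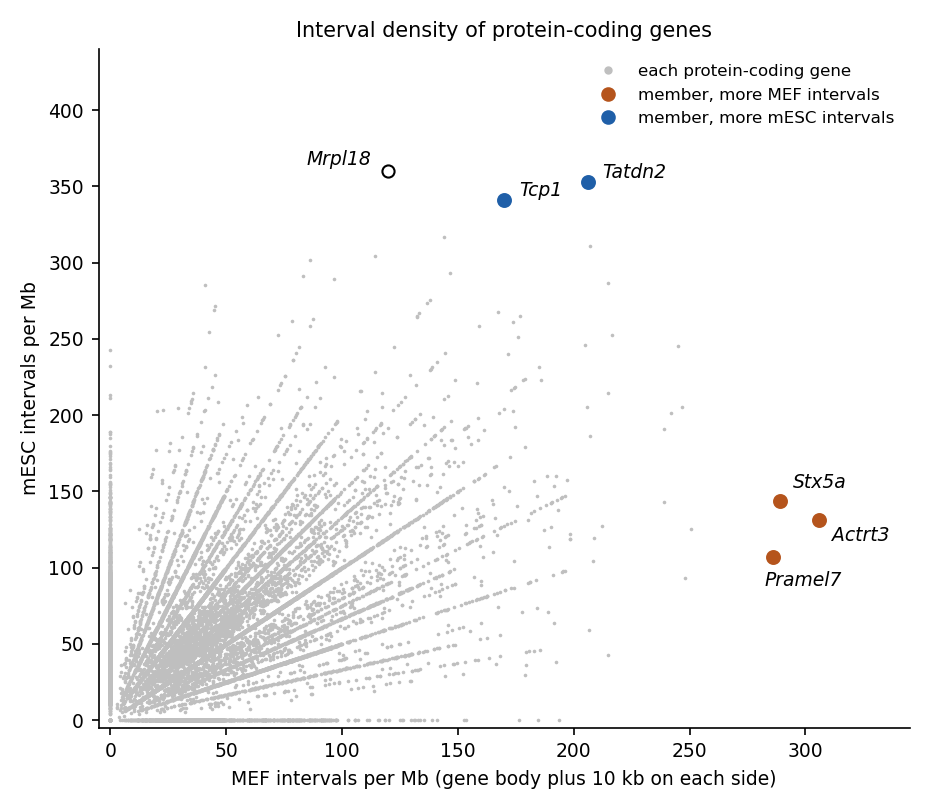
Listed intervals per Mb in the MEF list (x axis) against the mESC list (y axis), with 1 grey point for each of 21938 protein-coding genes. Actrt3, Stx5a and Pramel7 (orange) lie farthest to the right at 286 to 306 per Mb, and Mrpl18 (open), Tatdn2 and Tcp1 (blue) lie highest at 341 to 360 per Mb.

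The genes that led in one list were not the leaders of the other. Tatdn2 came nearest, at rank 21 in the MEF list with 206 per Mb, and Tcp1 stood at rank 96 with 170 per Mb. Stx5a stood at rank 688 in the mESC list with 144 per Mb, Actrt3 at 1070 with 131 per Mb and Pramel7 at 2119 with 107 per Mb. All these values were above the median gene. The mESC list held 56.2% of all intervals. At Tcp1 it held 10 of 15 (66.7%) and at Tatdn2 12 of 19 (63.2%). Its part was 5 of 15 at Stx5a (33.3%), 3 of 10 at Actrt3 (30%) and 3 of 11 at Pramel7 (27.3%). The same counts ranked the genes, so nothing is read from these ranks or parts.

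**Figure D2:**
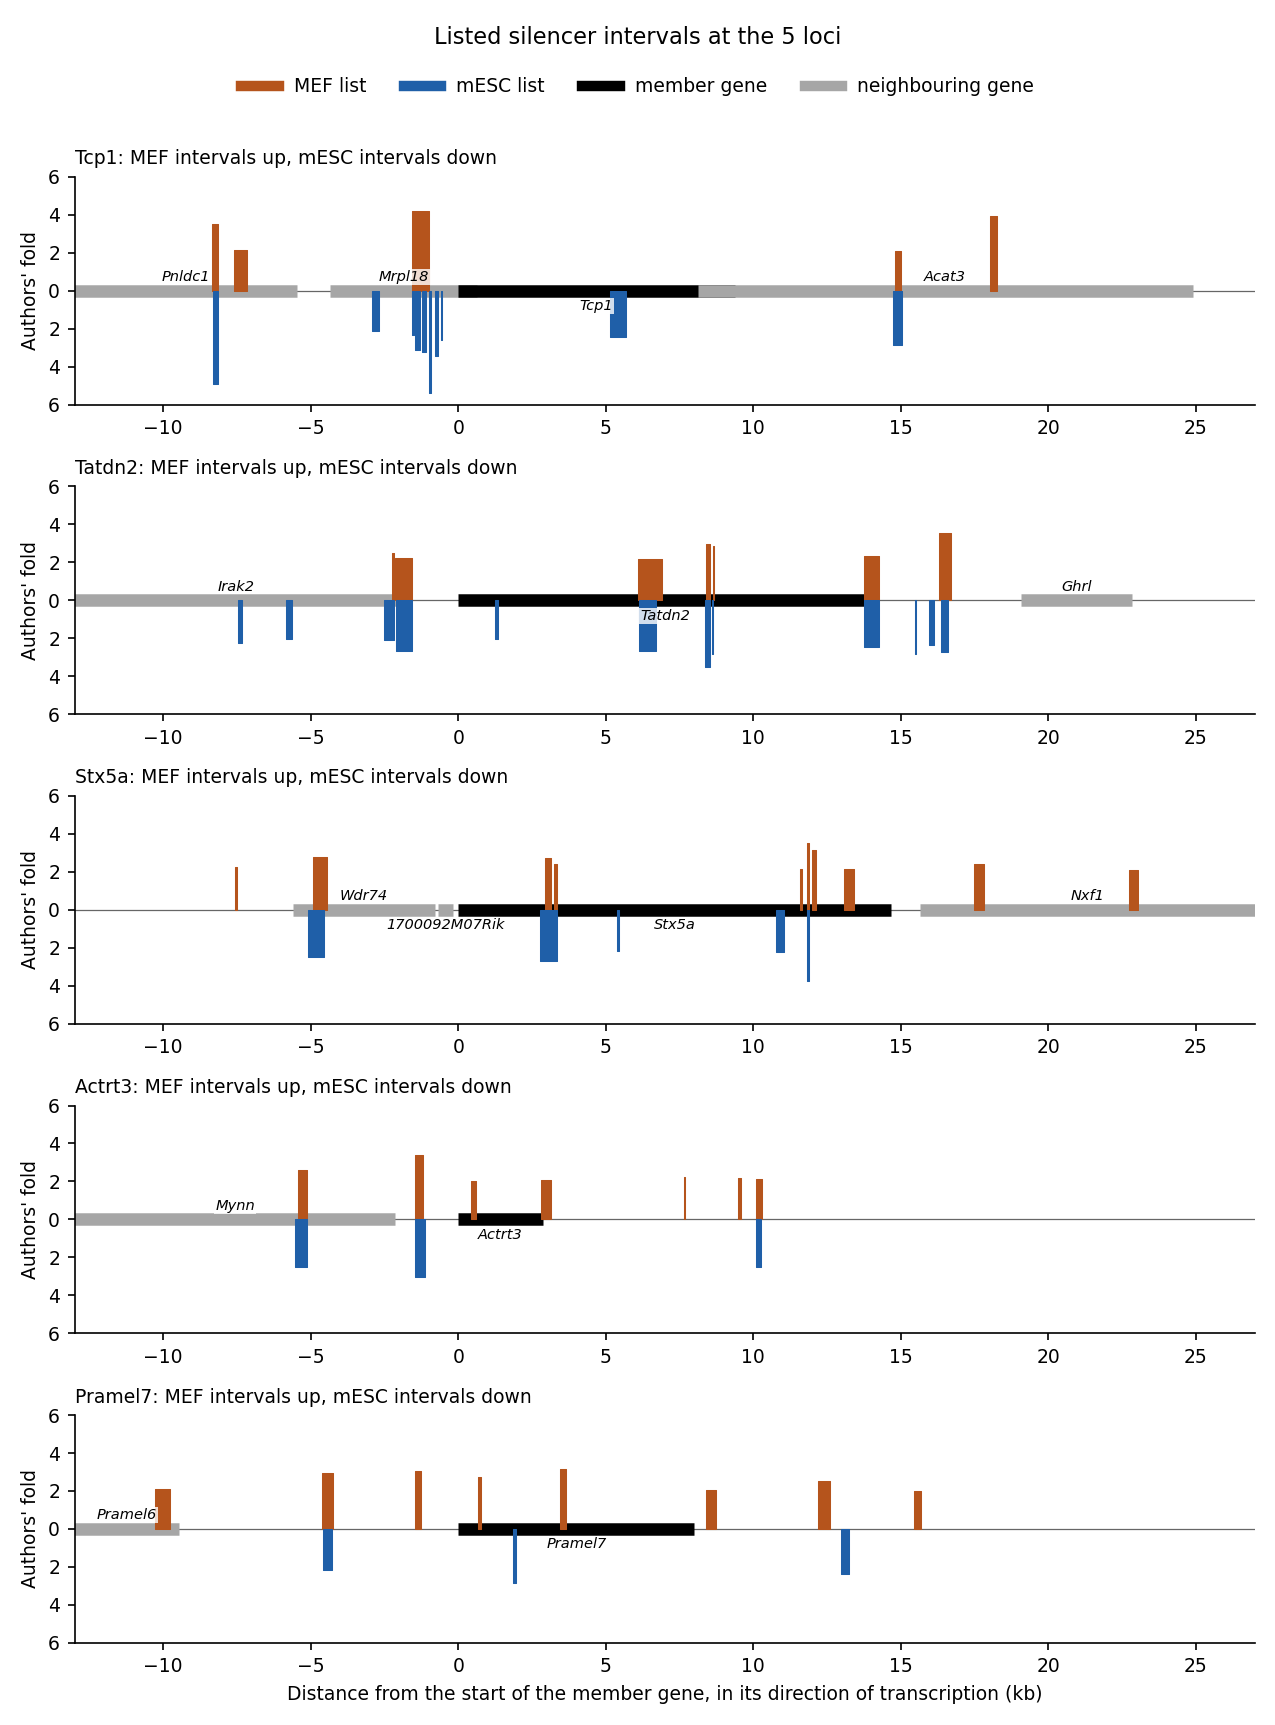
Intervals of the MEF list (orange, up) and mESC list (blue, down) at each locus, by distance from the start of the member gene in kb (x axis) and the authors' fold (y axis). Black bars are the member genes and grey bars neighbouring protein-coding genes, and the tallest bar is the mESC interval of fold 5.42 upstream of Tcp1.

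At Tcp1 (ENSMUSG00000068039.13, chr17:12915701-12925067, plus strand) the intervals sat mostly beside the gene rather than in it. No MEF interval and 1 of 10 mESC intervals touched the gene body. The exception covered 550 bp from 12920851 to 12921401 and had a fold of 2.46. It lay mostly in intron 6 or 7 of Tcp1, by transcript, with 15 coding bases. In the full GENCODE annotation 297 of its bases were in an exon of some transcript. The other mESC intervals lay in introns of the neighbours, 7 in Mrpl18, 1 in Pnldc1 and 1 in Acat3. Pnldc1 encodes an exonuclease of piRNA processing and Acat3 an acetyl-CoA acetyltransferase. The 5 MEF intervals were also intronic, 2 in Pnldc1, 1 in Mrpl18 and 2 in Acat3.

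Of the mESC intervals, 6 formed a run inside the second intron of Mrpl18 (chr17:12914002-12915637), the run that is printed above. It spanned 1016 bp from 12914147 to 12915163, of which 550 bp (54.1%) were listed. It ended 0.538 kb before the start of Tcp1 and began 1.18 kb inside Mrpl18 as that gene is read. In order of position the folds were 2.36, 3.15, 3.25, 5.42, 3.42 and 2.58, so the highest lay in the middle of the run. The gaps between neighbours were 50, 66, 100, 150 and 100 bp. Fragments of the plasmid library were 300 to 400 bp long, per the labels' protocols, so 1 fragment can reach across several of these intervals, and the 6 need not be separate elements.

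**Figure D3:**
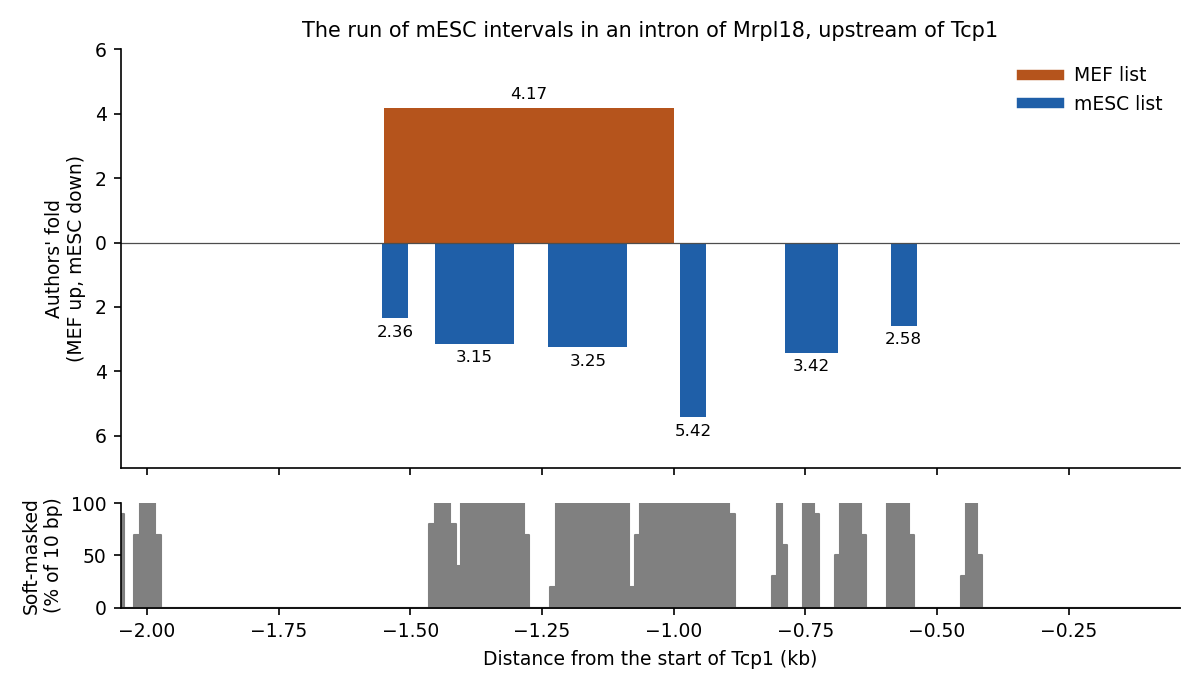
The upper panel shows the authors' fold of the MEF interval (orange, up) and the mESC intervals (blue, down) by distance from the start of Tcp1 in kb, and the lower panel the soft-masked percent of each 10 bp. A single MEF interval of fold 4.17 overlaps the first 3 of 6 mESC intervals, and the mESC interval of fold 5.42 lies in fully masked sequence.

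This run had no equal in the mESC list. When intervals of a list closer than 200 bp were joined, the 115165 mESC intervals gave 109460 regions, and 1 of them (0.000914%) held 6 or more intervals. That 1 was the Mrpl18 run, and next came 14 regions of 4. In the MEF list 0 of 85428 regions (0%) held 6 or more, and the largest held 5. The run chose Tcp1 in part, so these counts describe it and support nothing. With joining at 300 or 500 bp it was still the only mESC region of 6, at 1000 bp there were 2, and at 100 bp it broke into 4 regions of at most 3 intervals. In MEFs 1 interval of 550 bp lay in the first part of this stretch, from 12914151 to 12914701, with a fold of 4.17, the highest of the 37 MEF intervals. It held 46 of the 50 bases of the first mESC interval and all of the next 2, and ended 12 bp before the fourth, which had the highest fold.

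Counting the run as 1 region changed the rank of Tcp1. Its mESC count went from 10 intervals to 5 regions and its mESC rank from 3 to 194, and Mrpl18 went from 9 to 4 and from rank 1 to rank 264. The MEF count of Tcp1 stayed at 5. With the gene body alone Tcp1 ranked 2650 in the mESC list, while Mrpl18 ranked 6 with 7 intervals. Joined, the Tcp1 locus had 170 mESC regions per Mb, still above the median gene at 40.6 intervals per Mb, so the run carried the top rank and not all of the density.

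The repeat content of the run was uneven. Its first interval had no masked base, and all its 32-base words were unique in the genome, as were those of the fifth and sixth. In the third, 14.3% of the 32-base words were unique and the commonest occurred 27376 times. In the fourth, the one with fold 5.42, no word was unique and the commonest occurred 15640 times. The labels do not say how reads with many matching positions were placed, and the part of repeats in these folds was not tested.

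Elsewhere at Tcp1 the highest paired folds lay in the third intron of Pnldc1. The MEF interval 12907363 to 12907563 had a fold of 3.48 and the mESC interval 12907376 to 12907576 a fold of 4.90, over 187 shared bases. About 30.2% and 34.9% of their 32-base words were unique, and 79% and 72.5% of their bases were masked. In an Acat3 intron a MEF interval from 12930511 to 12930711 (fold 2.10) lay wholly inside an mESC interval from 12930441 to 12930741 (fold 2.87). The MEF interval 12933721 to 12933971, also in Acat3, had a fold of 3.91 and no mESC partner.

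At Tatdn2 (ENSMUSG00000056952.13, chr6:113697050-113711069, plus strand) every MEF interval had an mESC partner, 7 of 7, where 47.3% of the whole MEF list did. Of the mESC intervals 7 of 12 had a MEF partner, where 36.6% of the whole mESC list did. Tatdn2 was chosen for its mESC density, and a dense list offers more partners, so nothing is read from these shares. The mESC list added 5 places of its own, of folds 2.03 to 2.82, and no place was held by the MEF list alone. Of these, 3 MEF and 4 mESC intervals lay in Tatdn2 introns. Further intervals lay in Irak2, which encodes a kinase of interleukin-1 receptor signalling, in its UTR and 2 of its introns, and between Tatdn2 and Ghrl, the ghrelin gene. One interval was the same in both lists to the base. It ran from 113710801 to 113711301 across the 3 prime end of Tatdn2, with 268 of its 500 bases in the UTR. Its fold was 2.32 in the MEF list and 2.47 in the mESC list. Of the 20 overlapping pairs at the 5 loci it was the only one with the same start and end.

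The highest mESC fold at Tatdn2 was 3.50, for the interval 113705401 to 113705601, in intron 3 or 4 of Tatdn2, by transcript. The MEF interval inside it, 113705441 to 113705571, had a fold of 2.97. All 32-base words of both were unique, and 21.5% of the MEF and 43% of the mESC bases were masked. A second pair of 50 bp intervals lay 50 to 100 bp further on, with folds of 2.85 in MEFs and 2.84 in mESCs. These were fully masked, with 0% and 5.26% of their 32-base words unique. The highest MEF fold was 3.55, at 113713361 to 113713741 in the intergenic sequence before Ghrl, where the mESC interval had a fold of 2.71. Joining intervals closer than 200 bp left Tatdn2 with 10 mESC regions and rank 3, and with 5 MEF regions and rank 153.

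At Stx5a (ENSMUSG00000010110.17, chr19:8741413-8756069, plus strand) 10 MEF and 5 mESC intervals were listed. Inside the gene, 6 MEF and 4 mESC intervals had their midpoint in an intron of the GENCODE basic transcripts. With the body alone Stx5a ranked 64 in the MEF list (409 per Mb). The highest fold was at the same place in both lists, a 50 bp interval in a late intron (number 9 or 10, by transcript). The MEF interval 8753247 to 8753297 had a fold of 3.52 and the mESC interval 8753251 to 8753301 a fold of 3.73, over 46 shared bases. Its sequence had no masked base and only unique 32-base words. In the MEF list 2 more intervals lay within 189 bp on either side, at 8753008 to 8753058 (fold 2.13) and 8753397 to 8753547 (fold 3.18), and neither overlapped an mESC interval. Joined, these 3 were 1 MEF region of 539 bp, and Stx5a went from 10 intervals and rank 2 to 7 regions and rank 9.

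Other Stx5a intervals were of lower fold. In intron 4 or 5 of Stx5a, by transcript, a 550 bp mESC interval of fold 2.67, from 8744201 to 8744751, overlapped 2 MEF intervals of folds 2.72 and 2.43. In the full GENCODE annotation 325 bases of this mESC interval were in an exon of some transcript. So were 169 of the 200 bases of the MEF interval of fold 2.72. The neighbours Wdr74, a gene of ribosome assembly, and Nxf1, the messenger RNA export receptor, each held part of the count. The pair in intron 3 of Wdr74 had folds of 2.76 in MEFs and 2.47 in mESCs. Nxf1 held 2 MEF intervals (folds 2.43 and 2.10, the latter with 89 coding bases) and no mESC interval within the territory.

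At Actrt3 (ENSMUSG00000037737.6, chr3:30597073-30599939, minus strand) 7 MEF and 3 mESC intervals were listed, and all 3 mESC intervals had a MEF partner, against 36.6% of the mESC list. Of the 7 MEF intervals 3 (42.9%) had an mESC partner, against 47.3% of the MEF list. Actrt3 was chosen for its MEF density, and a dense list offers more partners, so nothing is read from these shares. The highest folds were at 1 place between Actrt3 and Mynn, a zinc finger gene read the other way, centred 1.33 kb (MEF) and 1.31 kb (mESC) upstream of the Actrt3 start. There the MEF interval 30601117 to 30601417 had a fold of 3.42 and the mESC interval 30601070 to 30601420 a fold of 3.02. Both contain the whole of a valine transfer RNA gene, n-TVaac8 (RefSeq, chr3:30601270-30601342, plus strand, 73 bp). Transfer RNA genes are read by RNA polymerase III from a promoter inside the gene. It was the only member place that overlapped a transfer RNA gene, and the look was made after the sequence had been read. In the whole lists 17 MEF intervals (0.019%) and 24 mESC intervals (0.0208%) overlapped 1 of the 403 RefSeq transfer RNA genes searched, which came to 4.47% and 6.45% of those genes.

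The remaining Actrt3 intervals were lower. The pair in intron 2 of Mynn had folds of 2.63 and 2.48, and the pair 10.2 kb downstream of the Actrt3 start 2.14 and 2.53. The 4 MEF intervals with no mESC partner had folds of 2.16, 2.21, 2.06 and 2.003, all below the MEF median of 2.36. Their low folds show in the rank: with intervals at or above the median fold, Actrt3 kept 2 MEF intervals and stood at rank 352 instead of 1. Joining left it at rank 1, since no member of this locus had a neighbour closer than 200 bp. The lowest percent of unique 32-base words in any Actrt3 interval was 84, and the masked share of these intervals ran from 0 to 48%.

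At Pramel7 (ENSMUSG00000025839.3, chr2:87489087-87497093, minus strand) 8 MEF and 3 mESC intervals were listed. Of the MEF intervals 1 of 8 (12.5%) had an mESC partner, against 47.3% of the MEF list. The mESC share was 1 of 3 (33.3%), against 36.6% of the mESC list. Pramel7 was chosen for its MEF density and few mESC intervals were there to meet, so nothing is read from these shares. The lists met at 1 place. That place was centred 4.43 kb (MEF) and 4.42 kb (mESC) upstream of the gene's start, on the side of Pramel6. The MEF interval 87501345 to 87501695 had a fold of 2.95 and the mESC interval 87501359 to 87501659, wholly inside it, a fold of 2.15. The other 7 MEF intervals had folds of 2.02, 2.53, 2.04, 3.18, 2.72, 3.07 and 2.12, and the other 2 mESC intervals 2.38 and 2.84. The highest, 3.18 at 87493431 to 87493631 in an intron of Pramel7, was 95.5% masked, with 24.9% of its 32-base words unique. The interval of fold 3.07, at 87498361 to 87498557, was centred 1.37 kb upstream of the Pramel7 start, with 25% of its bases masked. No Pramel7 interval had a close neighbour of its own list, so joining left the counts as they were, while the MEF rank went from 3 to 2 as the joined density of Stx5a was lower (202 per Mb).

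The members of both lists were next compared with the lists they came from, on features beside the density, some of them bound up with it. Of the 37 MEF intervals 18 (48.6%, 31.9 to 65.6) overlapped an mESC interval, where 47.3% of the whole MEF list did. Of the 33 mESC intervals 19 (57.6%, 39.2 to 74.5) overlapped a MEF interval, where 36.6% of the whole mESC list did. The MEF share was near that of its list and the mESC share was higher. The loci were chosen for a high density in 1 list, which raises the number of intervals that could meet. Its part in this was not tested, so nothing is read from these shares. Intervals of 1 locus are also not independent, and 3 of the 19 mESC intervals lay in the Mrpl18 run and met the same MEF interval. Merging what touched gave 50 places, 17 in both lists, 19 in MEFs only and 14 in mESCs only. By locus the shared places numbered 3 of 10 at Tcp1, 7 of 12 at Tatdn2, 3 of 11 at Stx5a, 3 of 7 at Actrt3 and 1 of 10 at Pramel7. The whole lists were not merged in this way, so nothing is read from the counts of places. Of the unshared intervals 4 of 19 in MEFs (21.1%) and 5 of 14 in mESCs (35.7%) lay within 500 bp of the other list, where 8.12% and 6.36% of all unshared intervals did. Of the 5 mESC ones, 3 were the last intervals of the Mrpl18 run. Closeness to the other list depends on density too, so nothing is read from these counts.

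**Figure D4:**
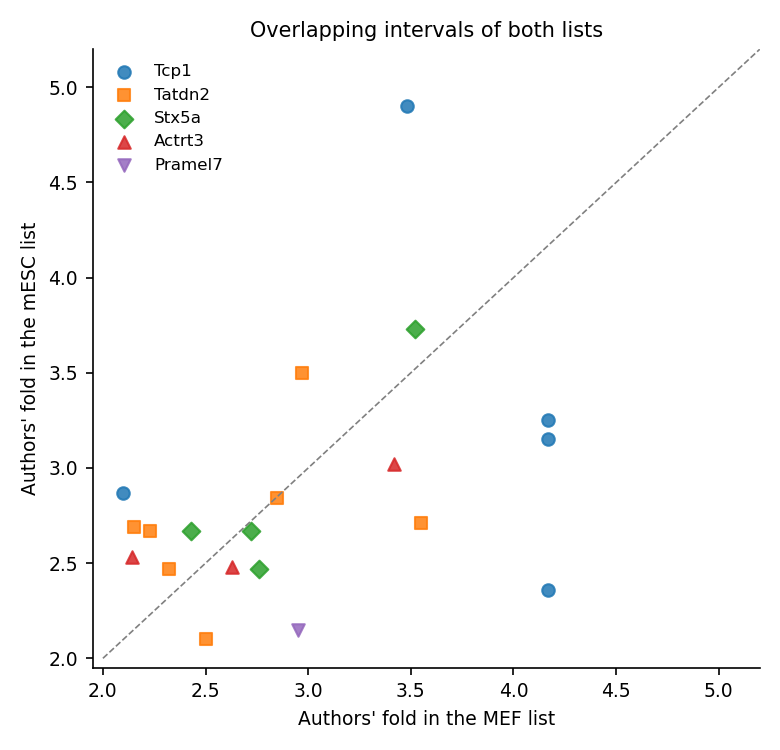
The authors' fold in the MEF list (x axis) against the mESC list (y axis) for the 20 overlapping pairs of intervals, with the dashed line marking equal values. The Pnldc1 pair of the Tcp1 locus (3.48 and 4.90) stands highest, and 3 Tcp1 points share the MEF interval of fold 4.17.

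Among the 20 pairs the MEF fold was the higher number in 11 and the mESC fold in 9. The largest ratio within a pair was 1.77, for the MEF interval of fold 4.17 and the first interval of the Mrpl18 run. In 14 of the pairs the overlap covered 50% or more of both intervals. Some pairs share an interval, and the same count was not made over the whole lists, so nothing is read from it. Members with a partner had a higher median fold than those without, 2.74 against 2.16 in MEFs and 2.69 against 2.36 in mESCs. The whole lists had the same order, 2.46 against 2.29 and 2.53 against 2.36.

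The folds of the members were near those of the lists. The median was 2.43 for the 37 MEF members and 2.36 for the MEF list, and 2.58 for the 33 mESC members and 2.42 for the mESC list. A fold of 3 or more was found for 9 of 37 MEF members (24.3%, 11.8 to 41.2) against 18.6% of the list, and for 8 of 33 mESC members (24.2%, 11.1 to 42.3) against 22.5%. Tcp1 held 3 of those 9 and 5 of those 8. The highest member fold, 5.42, stood at the 97.2 percentile of the mESC list, whose highest fold was 116.5. So few members seldom reach the top of a long list, so nothing is read from this.

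Close spacing is bound up with the density that chose the genes, so its counts are a description from which nothing is read. A neighbour of the same list closer than 200 bp was found for 9 of 37 MEF members (24.3%) against 9.09% of the list. The count was 10 of 33 mESC members (30.3%) against 9.68%. These were 4 MEF and 4 mESC intervals at Tatdn2, 5 MEF intervals at Stx5a and the 6 of the Mrpl18 run, with 0 at Actrt3 and Pramel7. Intervals of at least 1 list were thus packed at Tcp1, Tatdn2 and Stx5a and spread out at Actrt3 and Pramel7.

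Short intervals were no more frequent than in the lists. Intervals of 100 bp or less were 9 of 37 in MEFs (24.3%, 11.8 to 41.2) against 31.2% of the list and 9 of 33 in mESCs (27.3%, 13.3 to 45.5) against 30.2%. The median length was 250 bp in MEFs and 200 bp in mESCs, against 200 bp in both lists. Members carried more masked sequence than their lists, with median masked shares of 43.1% (MEF) and 44.3% (mESC) where the lists had 29.7% and 33%. Intervals with no masked base were 3 of 37 (8.11%, 1.7 to 21.9) against 18.6%, and 3 of 33 (9.09%, 1.92 to 24.3) against 16.9%. By locus the median masked share of MEF members ran from 16.6% at Actrt3 to 64% at Tcp1. A 32-base word with 1000 or more genomic copies was found in 13 of 37 MEF members (35.1%, 20.2 to 52.5) against 18.5% of the list. The count was 15 of 33 mESC members (45.5%, 28.1 to 63.6) against 21.3%, with 0 at Actrt3 in both lists. By locus the MEF count ran from 0 of 7 at Actrt3 to 4 of 5 at Tcp1. Intervals of 1 locus are not independent, shared places put the same sequence in both lists, and these differences were not tested. Median GC content was 42.3% and 40.8%, against 40% in both lists.

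By their midpoints 20 of 37 MEF members (54.1%) and 23 of 33 mESC members (69.7%) lay in introns, against 41.1% and 41.4% of the lists. In intergenic sequence lay 13 (35.1%) and 8 (24.2%), against 56.9% and 56.7%. Territories were drawn around genes, so nothing is read from this difference. Of the others, 2 in each list had their midpoint in a UTR, at Irak2 and Tatdn2, as did 1.36% of the MEF and 1.32% of the mESC list. In the MEF list 1 lay in a coding exon of Nxf1 (0.602% of each list lay in coding exons). Another MEF interval lay in a noncoding exon of Pramel6, against 0.0301% of the MEF list and 0.0269% of the mESC list. Only 2 MEF and 3 mESC intervals had their midpoint within 1 kb of the start of the member gene. The 3 mESC ones were the last intervals of the Mrpl18 run. Those counts are 5.41% and 9.09% of the members, and the windows of 1 kb on each side of the starts made up 6.72% of the 5 territories.

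A set of 10 short motifs was looked for on both strands in the 300 bases centred on each member interval and on each interval of the lists. They were an AP-1 site (TGAGTCA), a MYC-type E-box (CACGTG), a TEAD site (GGAATG), the octamer (ATGCAAAT), a SOX site (ACAAAG), a KLF/SP site (CCCCGCCC), the ZFP57 hexamer (TGCCGC), a BCL6/STAT site (TTCNNNGAA), the CCAAT box (CCAAT) and CpG (CG). CpG is contained in the E-box, KLF/SP and ZFP57 letters, and TEAD and BCL6/STAT matches can share letters. The SOX letters were in 17 of 37 MEF windows (45.9%) against 26.3% of the MEF list, and in 12 of 33 mESC windows (36.4%) against 25.3%. In each printed sequence that holds the SOX letters, they lie in soft-masked bases. Members carried more masked sequence than their lists, and the part of repeats in these counts was not tested. The CCAAT letters were less frequent than in the lists, at 29.7% of MEF and 27.3% of mESC windows where the lists had 41.4% and 41.3%. The TEAD letters stood at 16.2% in MEFs and 18.2% in mESCs, against 16.2% and 16.5%. The octamer letters were in 0 member windows, against 2.53% of the MEF and 2.51% of the mESC list. The KLF/SP letters were also in 0, against 0.872% and 1.03%, as were the ZFP57 letters, against 1.35% and 1.49%. The AP-1 letters were in 1 MEF window (2.7%) and 0 mESC windows, against 5.18% and 4.51%. The BCL6/STAT letters were in 3 MEF windows (8.11%) and 0 mESC windows, against 9.67% and 9.1%. The E-box letters were in 1 window of each list (2.7% and 3.03%), against 2.83% and 2.5%. CpG was in 89.2% of MEF and 87.9% of mESC windows, against 82.1% and 81.7%. Windows of overlapping or close intervals share sequence, so they are not independent, and a match is a string of letters and not a bound site.

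By distance the density changed unevenly. Each interval was counted once here, by its midpoint, so these values can differ from the counts by overlap. Within 10 kb outside the gene body Tcp1 had 250 MEF and 450 mESC intervals per Mb, and from 10 to 25 kb it had 0 in both lists. From 25 to 50 kb it had 80 and 140 per Mb and from 50 to 100 kb 50 and 70, above the 32.9 and 42.3 per Mb of the whole lists. At 250 to 500 kb the values were 18 and 30 per Mb, below them. Tatdn2 went from 150 MEF and 350 mESC per Mb within 10 kb to 100 and 66.7 from 10 to 25 kb, and to 0 and 20 from 25 to 50 kb. Actrt3 went from 300 MEF and 150 mESC per Mb within 10 kb to 33.3 and 100 from 10 to 25 kb and to 20 in both from 25 to 50 kb, with 60 and 100 from 50 to 100 kb. The rule chose on the inner values, so a lower value outside them is a description and not a finding.

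Stx5a and Pramel7 lay in wider dense stretches. At Stx5a the MEF density was 200 per Mb within 10 kb, 167 from 10 to 25 kb and 100 from 25 to 50 kb. Outside the gene body the Stx5a mESC density did not fall, with 50 per Mb within 10 kb and 76 from 250 to 500 kb. At Pramel7 the MEF density was 250 and then 167 per Mb, and the mESC density was higher from 10 to 25 kb (233 per Mb) than within 10 kb (100 per Mb). With a flank of 25 kb Pramel7 had 13 MEF and 11 mESC intervals and stood at rank 4 in MEFs and rank 47 in mESCs.

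**Figure D5:**
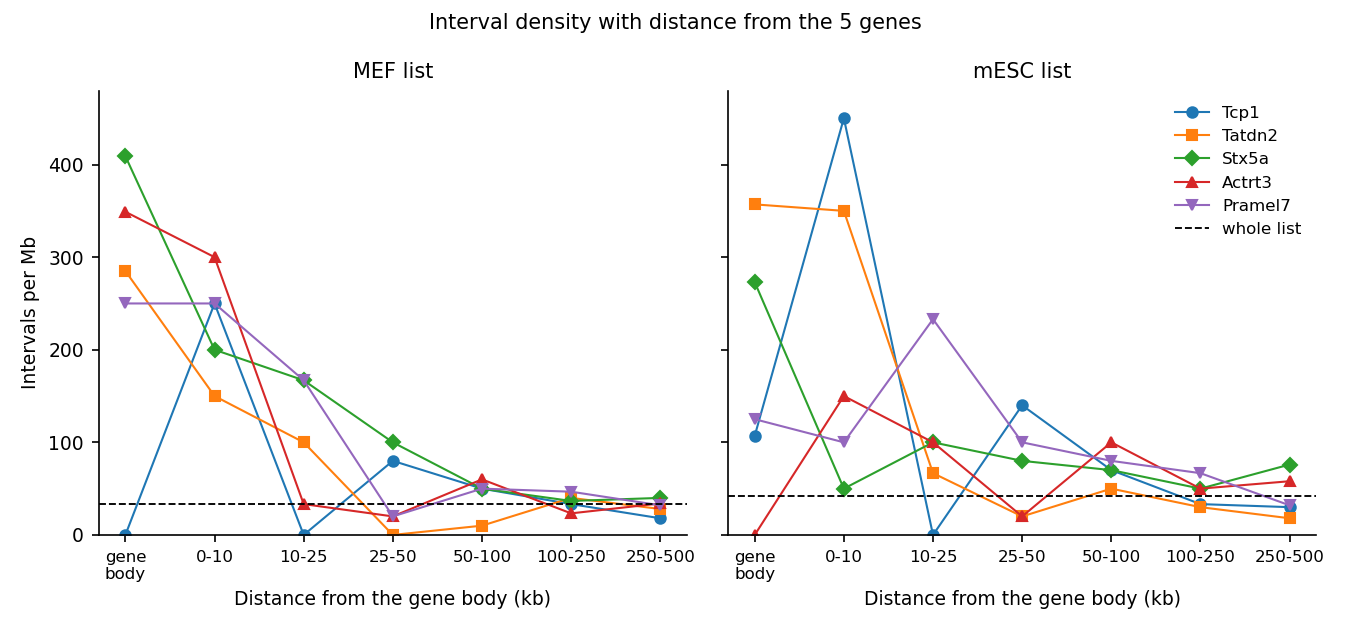
Intervals per Mb in the gene body and in rings of distance from it in kb, on both sides together, for the MEF list (left) and mESC list (right), with 1 line per gene. The dashed line is the whole list at 32.9 (MEF) or 42.3 (mESC) per Mb. All 5 loci lie at 18 to 76 per Mb at 250 to 500 kb, the highest being Stx5a in the mESC list.

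Neighbouring genes shared these intervals and ranked high with them. Wdr74, beside Stx5a, had 6 MEF and 5 mESC intervals (ranks 8 and 111), Nxf1 had 7 and 2 (ranks 20 and 7186) and 1700092M07Rik 4 and 3 (ranks 31 and 634). Pramel6 had 6 MEF and 5 mESC intervals (ranks 6 and 96). Beside Tcp1, Pnldc1 had 3 and 9 (ranks 3292 and 68) and Acat3 3 and 8 (ranks 2352 and 67). Irak2 and Ghrl, beside Tatdn2, stood at ranks 2629 and 2124 in the MEF list and 1096 and 319 in the mESC list. Mynn, beside Actrt3, had 5 and 4 (ranks 393 and 2179).

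Relatives of the member genes were counted in the same way, and over all protein-coding genes 68.5% had a MEF interval and 75.5% an mESC interval. Of 15 other genes of the cytosolic chaperonin and its partner prefoldin, 11 had an interval in each list and 10 lay above the all-gene median in each. Their median density was 46.1 per Mb in the MEF list and 60.9 per Mb in the mESC list. Pfdn2, a prefoldin subunit, had 4 MEF and 5 mESC intervals, and Cct8, a chaperonin subunit, 5 and 4. Of 18 other SNAREs and helpers of the endoplasmic reticulum and Golgi, 13 had an interval in each list, and 9 in the MEF list and 8 in the mESC list lay above the median. Their median density was 31.8 and 38 per Mb, and Vti1b, a SNARE, had 3 and 6 intervals. Of 7 other testis actin-related genes, 3 had a MEF and 2 an mESC interval, with a median density of 0 in both lists. Tatdn1 had 3 MEF and 5 mESC intervals and Tatdn3 had 3 and 4, so both lay above the all-gene median in each list. Of 12 other PRAME-like genes found by symbol, 4 had a MEF and 7 an mESC interval, with median densities of 0 and 36.2 per Mb, and Pramel6, the neighbour of Pramel7, was the densest of them in both lists.

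By the pair of densities, each on a log2(1 + intervals per Mb) scale over 2 lists, the genes most like Tcp1 were Zfp941 (distance 0.262) and Gm26661 (0.305). Those most like Tatdn2 were Oip5 (0.182) and Hesx1 (0.305), the latter with 6 MEF and 8 mESC intervals. Stx5a was nearest to Olfr474 (0.272) and Sbp (0.285), and Actrt3 to the same genes (0.378 and 0.295). Pramel7 was nearest to Zfp128 (0.286), which had 8 MEF and 3 mESC intervals, as Pramel7 did, and to Sbp (0.293).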

How the data were processed

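The submitters' processing notes name Bowtie2 for alignment and SAMtools, without versions, and the build hg38. The series design names mm10, and 0 intervals of either list ended past an mm10 chromosome. Each deposited interval carries the authors' fold, a linear ratio headed FC, per the file headers. Neither labels nor headers state the interval caller, the depth scaling or the pooling. Intervals are printed as deposited. Of the starts, 40.7% in MEFs and 40.8% in mESCs were 1 more than a multiple of 50, so positions may be off by 1 bp. Members, gene lists and motifs were chosen with earlier results of these data known. Gene models were GENCODE M21, and sequence, masking and transfer RNA genes were RefSeq GRCm38.p6. Python 3.11.15, pandas 2.3.3 and scipy 1.17.1 were used, and counting and overlap were tested on simulated data. Named besides the members were their protein-coding neighbours, up to 3 relatives per family and, per member, the 2 genes nearest in density. Of 17 chaperonin and prefoldin symbols 16 were found.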

Additional observations from a re-analysis of the deposited data

How the results depend on the processing

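Of 50 alternatives to the interval counts, shared parts and median folds, 46 stayed within 1.5 times the count or inside the 95% interval, and 4 did not. With gene bodies alone the counts were 14 MEF and 11 mESC intervals, since less sequence is searched. With intervals at or above the list's median fold the MEF count was 20. With midpoints within 1 kb taken as shared, 78.8% of mESC intervals had a MEF partner. Leaving out each locus in turn gave shared parts of 36.7 to 58.6% in MEFs and 53.3 to 60.9% in mESCs, and median folds of 2.43 to 2.51 and 2.48 to 2.62. Without the Tatdn2 locus the MEF part was the lowest, 36.7%. The density ranks were judged by the factor of 1.5 and not by a 95% interval, so their stability is not compared. Small shifts among the top ranks count as moves under that rule. Of 25 alternatives 14 moved a rank by over 1.5 times, and the gene body alone moved each of the 5. Joining at 500 bp, chosen after the data were seen, gave 32 MEF and 24 mESC regions. No depth was given, so no interval has an error of its own. No paired analysis was possible because the lists hold no values per library.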

Other observations

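Many intervals shared a fold to the last digit. The 89596 MEF intervals carried 3077 distinct folds and the 115165 mESC intervals 3594. The commonest MEF fold, 2.723, was found on 3051 intervals, among them the Stx5a interval 8744357 to 8744557 and the Pramel7 interval 87496319 to 87496419. The commonest mESC fold, 2.71, was found on 4086 intervals, among them the Tatdn2 interval 113713411 to 113713661. Of the members, 2 MEF and 2 mESC intervals carried a fold found on 1000 or more intervals, as did 6.99% and 7.89% of the lists. The interval of fold 5.42 in Mrpl18 shared its fold with others, 420 intervals in all.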
